A study of Mus musculus with 20 samples.

Results

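The genes described here are 39 genes of DNA replication and S phase, the part of the cell cycle in which the genome is copied. They were taken as listed and matched to the array by gene symbol, and the probe with the highest mean over all 20 arrays stood for each gene. Of the 39 genes, 38 had a probe and 36 were measured above background, out of 12710 measured genes and 20255 genes with a symbol on the array. Prim1 had no probe, Pola1 was above background on 0 arrays and Pole2 on 1 array, so no level is given for them. Each of the 36 measured genes was above background on all 20 arrays.

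Replication starts at origins, where the origin recognition complex, Cdc6 and Cdt1 load the ring-shaped MCM helicase onto DNA before S phase. Cdc45, the GINS proteins and Mcm10 then turn the helicase on, and the polymerases, the sliding clamp and its loader copy both strands. Many of these genes are induced together by E2F transcription factors when a cell enters S phase. In the thymus, immature thymocytes divide rapidly after the pre-T cell receptor is formed and most then rest at the double-positive stage, where the cells carry both CD4 and CD8.

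The series measured RNA from mouse thymus, thymus grafts, T cell acute lymphoblastic leukaemia (T-ALL) and spleen on Illumina bead arrays, under a title that names disease progression. There were 4 arrays of thymus grafts at 10 weeks and 7 of T-ALL, all from F1(WB x B6/Ly5.1) mice. A further 3 T-ALL arrays of the same strain carried the mark Rag-, which the labels do not explain. The arrays of total thymocytes and of spleen from wild-type C57BL/6 mice numbered 2 each, and 2 more held spleen cells of WB host mice. All 10 T-ALL arrays were marked as new analyses of earlier samples. The labels name neither the host genotype nor the driver of the leukaemias. The wild-type and host arrays are labelled as total cells. For grafts and T-ALL, cells came from whole suspensions or from sorts without saying which. Whether arrays of a group were separate mice is not given, and the spread behind every p-value is that of arrays, part of which may be technical. The number of arrays limits the precision.

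Several arrays went against their labels or stood apart, judged by lists of cell type markers. Wild-type thymus 1 had a mean of 9.31 (log2 intensity) over 9 genes of the T cell receptor complex, where the 4 grafts had 12.27 to 13.34, and 14.04 over 11 granulocyte genes. The host spleens had 11.27 and 11.07 over 10 genes of double-positive thymocytes, as high as grafts 1 and 4, and 9 of the 11 granulocyte genes were not above background there. Graft 3 had 9.91 over those thymocyte genes, below the other 3 grafts at 10.59 to 11.23. Over 8 erythroid genes it had 11.59, where grafts 1, 2 and 4 had 7.50, 10.89 and 7.54. Graft 2 stood apart too, with 10.67 over the granulocyte genes, where grafts 1, 3 and 4 had 6.82, 8.74 and 6.79. In such mixed samples, fewer cells of a type and less RNA per cell cannot be told apart. The wild-type spleens had 8.79 and 7.85 over 8 B cell genes. Wild-type spleen 1 had a granulocyte mean of 14.25, and wild-type spleen 3 had 10.10 over the double-positive thymocyte genes, inside the T-ALL range. Counts over the list are given with and without these arrays.

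The promoters of the replication genes are shown because E2F sites are the textbook link between these genes. RefSeq promoters of mouse build GRCm38.p6, 250 bases before to 50 bases after the start, were matched for 32 of the 39 genes. The E2F-type letters TTTCCCGC, TTTGGCGC, TTTCGCGC or TTTGCCGC stood on either strand in 14 of the 32 (43.8%). The same letters stood in 4.35% of 10051 measured genes with a promoter and in 2.26% of all 32851 promoters. In the promoters of Mcm3 (chr1:20820263-20820562, minus strand), Mcm6 (chr1:128359656-128359955, minus), Rfc3 (chr5:151651159-151651458, minus), Cdc6 (chr11:98907901-98908200, plus) and Rpa2 (chr4:132768110-132768409, plus), capitals mark these letters or their reverse complement. In Mcm6 the first and second match overlap, and Rpa2, which had the smallest p between T-ALL and grafts, has none in this window.
Mcm3: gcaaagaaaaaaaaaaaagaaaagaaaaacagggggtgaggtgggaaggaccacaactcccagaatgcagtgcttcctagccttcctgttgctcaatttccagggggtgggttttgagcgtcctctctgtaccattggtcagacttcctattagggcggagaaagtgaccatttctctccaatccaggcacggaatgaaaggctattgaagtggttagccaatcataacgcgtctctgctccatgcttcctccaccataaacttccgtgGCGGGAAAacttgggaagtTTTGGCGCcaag
Mcm6: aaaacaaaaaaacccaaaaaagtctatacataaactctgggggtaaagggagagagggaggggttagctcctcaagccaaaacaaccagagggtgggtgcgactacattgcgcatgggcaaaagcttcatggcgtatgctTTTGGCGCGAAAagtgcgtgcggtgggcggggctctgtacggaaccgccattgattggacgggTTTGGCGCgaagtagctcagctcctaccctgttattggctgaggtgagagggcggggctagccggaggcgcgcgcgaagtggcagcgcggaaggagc
Rfc3: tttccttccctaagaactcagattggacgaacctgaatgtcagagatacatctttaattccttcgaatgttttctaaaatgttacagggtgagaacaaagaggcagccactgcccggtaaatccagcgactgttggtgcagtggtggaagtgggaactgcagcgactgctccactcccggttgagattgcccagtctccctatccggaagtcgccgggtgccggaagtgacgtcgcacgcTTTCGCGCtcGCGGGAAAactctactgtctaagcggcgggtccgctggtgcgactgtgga
Cdc6: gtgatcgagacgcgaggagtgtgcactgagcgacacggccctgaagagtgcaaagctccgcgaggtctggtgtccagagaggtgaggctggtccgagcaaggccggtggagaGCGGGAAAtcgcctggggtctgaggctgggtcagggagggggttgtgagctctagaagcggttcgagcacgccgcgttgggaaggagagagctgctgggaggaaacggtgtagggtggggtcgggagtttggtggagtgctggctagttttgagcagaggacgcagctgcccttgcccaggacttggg
Rpa2: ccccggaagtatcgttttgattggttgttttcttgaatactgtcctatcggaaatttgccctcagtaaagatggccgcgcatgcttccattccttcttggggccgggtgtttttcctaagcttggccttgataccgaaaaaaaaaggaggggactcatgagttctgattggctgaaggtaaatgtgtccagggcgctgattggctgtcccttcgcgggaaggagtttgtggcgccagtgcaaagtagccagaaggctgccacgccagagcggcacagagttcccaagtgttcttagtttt

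The letters CCAAT, on either strand, stood in 62.5% of the 32 promoters, 42.5% of those of measured genes and 37.4% of all promoters. TTTGAA, the core of a cell cycle element, stood in 12.5%, against 14.9% and 17.9%. A match is a description of letters and not a bound site. The 12 measured genes with E2F-type letters had a median T-ALL minus graft difference of 0.604 on the log2 scale and the 17 without had 0.584.

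The mean level of the 36 genes was lowest on 3 of the 4 grafts. It was 10.11, 10.06, 10.95 and 9.93 (log2 intensity) on grafts 1 to 4, and 10.60, 10.71, 11.05, 10.58, 10.91, 10.93 and 10.85 on T-ALL 1 to 7. The T-ALL arrays marked Rag- had 10.86, 10.77 and 11.12. Grafts 1, 2 and 4 were thus below every T-ALL array, and graft 3 was above 6 of the 7 T-ALL arrays without the mark. Wild-type thymus 1 and 3 had 10.40 and 11.09, wild-type spleen 1 and 3 had 10.28 and 10.82, and the host spleens had 10.21 and 10.38.

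**Figure D1:**
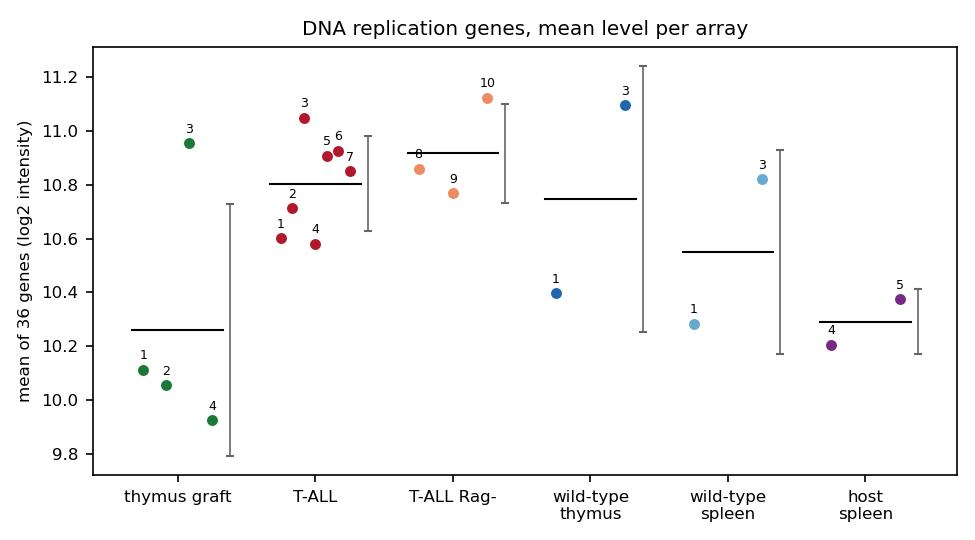
Mean log2 intensity of the 36 measured DNA replication genes (vertical axis) on each array, by group (horizontal axis). Points are arrays with their number, black bars are group means and the grey bar at the right of each group is the SD. Graft 3 at 10.95 lies among the T-ALL arrays, and the other 3 grafts lie between 9.93 and 10.11.

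As group means, the level was 10.26 ± 0.467 (SD, n = 4) in grafts, 10.80 ± 0.176 (SD, n = 7) in T-ALL and 10.92 ± 0.184 (SD, n = 3) in T-ALL marked Rag-. It was 10.75 ± 0.492 (SD, n = 2) in wild-type thymus, 10.55 ± 0.378 (SD, n = 2) in wild-type spleen and 10.29 ± 0.12 (SD, n = 2) in host spleen. Without graft 3 the graft mean was 10.03 ± 0.096 (SD, n = 3). The mean was 0.541 higher (1.455-fold) in T-ALL than in all 4 grafts and 0.772 higher (1.708-fold) than in grafts 1, 2 and 4. No test was made on this mean.

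Single genes followed the mean to different degrees. Over the 20 arrays, which share groups and chips, Pearson's r with the mean of the other genes was highest for Mcm10 (0.963), Mcm5 (0.955) and Cdc45 (0.953). It was lowest for Ccne1 (0.067), Pcna (0.161) and Rpa1 (0.201). Levels were most spread for Gins2, with an SD of 0.689 over the 20 arrays, Chaf1b (0.678) and Mcm10 (0.649), and least for Rpa1 (0.241) and Rfc2 (0.272). These are levels of the brightest probe. Another Rfc2 probe ran from 8.49 to 10.96 over the 20 arrays, with r = 0.25 to the one used.

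**Figure D2:**
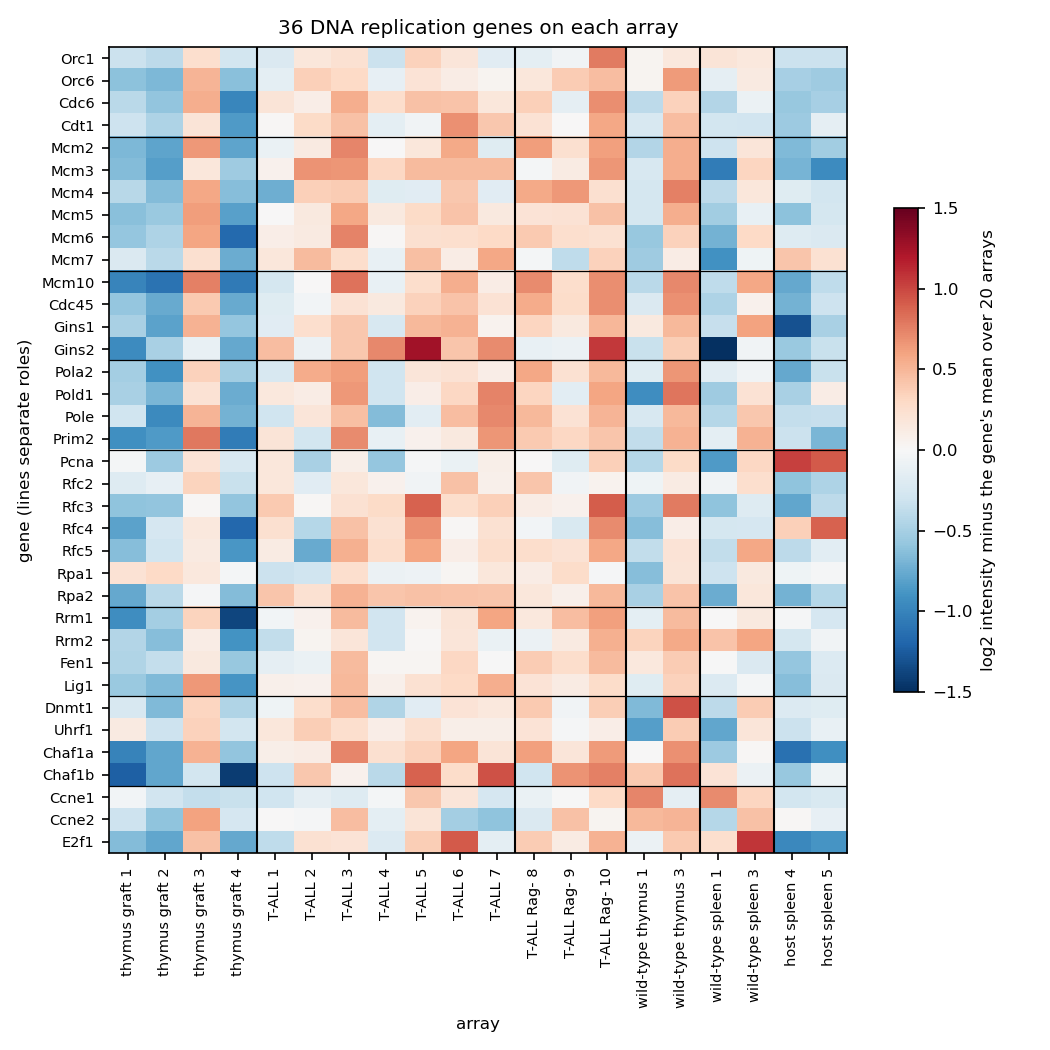
Level of each of the 36 genes (rows, with lines between roles) on each of the 20 arrays (columns, with lines between groups), as log2 intensity minus the gene's own mean. Grafts 1, 2 and 4 and both host spleens are below the mean for most genes, and graft 3 and wild-type thymus 3 are above it for most.

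The first comparison set leukaemia against the grafted thymus. In T-ALL, 35 of the 36 genes had a higher mean than in grafts, and 0 passed the test (limma, Benjamini-Hochberg adjusted over all genes). Of all genes, 0.323% were called in this comparison, 52.3% had a difference above 0, and the median difference was 0.01, where the 36 genes had a median of 0.59 (log2). At an unadjusted p under 0.05 stood 25 of the 36, and 16.9% of all genes. Without graft 3, 24 of the 36 genes rose in T-ALL and 0 fell, where 3.45% of all genes rose and 5.28% fell. The median over the 36 genes was then 0.84 (log2). Leaving out any other single graft or T-ALL array gave 0 genes. Graft 3 stood out by high levels of these same genes as well as by its markers, so the calls made without it are no independent support for the difference, and its label gives no ground to leave it out.

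Graft 3 carried the highest graft level for 34 of the 36 genes, and was at or above the lowest T-ALL array for 33 and at or above the T-ALL median for 26. The share of all genes with these orders is not given, so whether they are particular to this list cannot be told. Grafts 1, 2 and 4 were all below every T-ALL array for 24 genes, where 6.19% of all genes showed that order. With all 4 grafts, the groups did not overlap for 2 genes, Rpa2 and Gins2, both higher in T-ALL, against 1.3% of all genes. On a further probe of each of these genes, T-ALL and graft arrays overlapped. Without graft 3 and with chip as a block, a setting added after the data were seen, 15 genes rose, where 2.23% of all genes did.

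**Figure D3:**
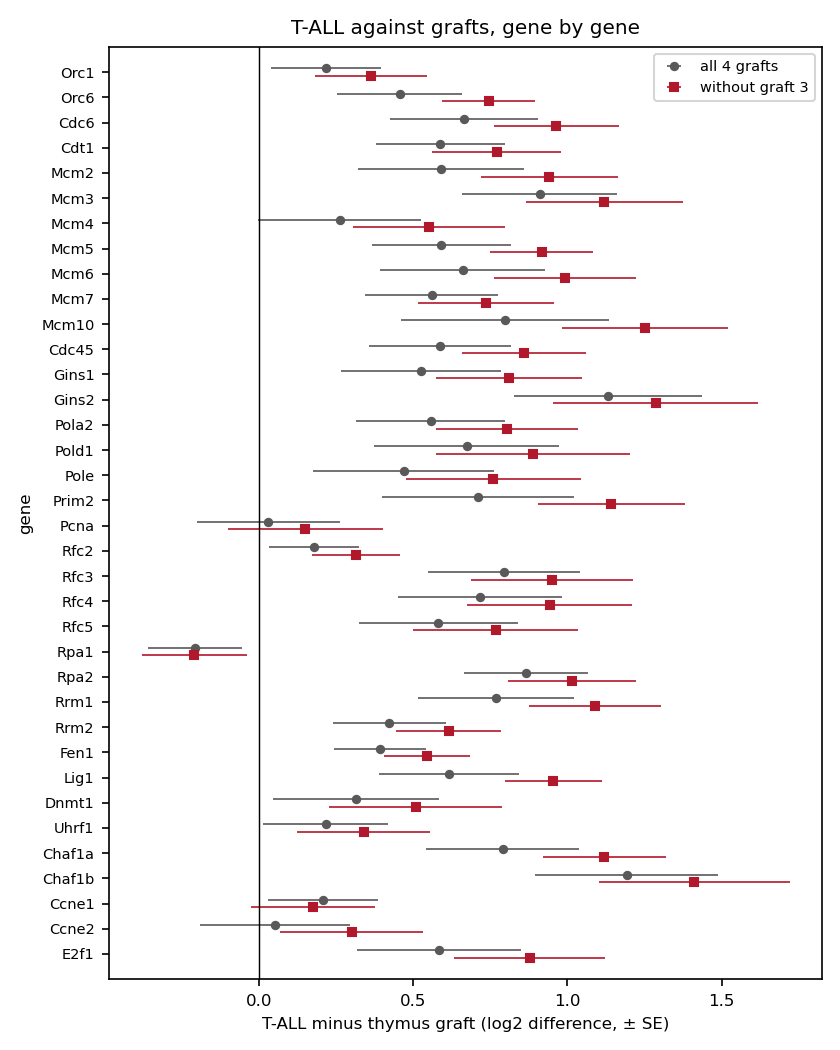
T-ALL minus graft difference of each gene (log2, horizontal axis, with SE bars) with all 4 grafts (grey circles) and without graft 3 (red squares). With all 4 grafts, Rpa1 alone has a difference below 0, and Chaf1b and Gins2 have the largest, at 1.19 and 1.13.

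In the gene-by-gene account that follows, 0 of the 36 genes passed in the main fit with all 4 grafts. Calls made without graft 3 carry the limit given above, and 3.45% of all genes rose in that fit. Among the genes of origin recognition and licensing, Orc6, Cdc6 and Cdt1 rose only without graft 3 and Orc1 did not pass. Cdt1, which brings the MCM helicase to origins, was at 11.15, 11.00, 11.65 and 10.61 on grafts 1 to 4. On the 7 T-ALL arrays its lowest, median and highest levels were 11.31, 11.75 and 12.14, and on the Rag- arrays it was at 11.68, 11.46 and 12.04. Graft 3 lay inside the T-ALL range and the other grafts below it. The difference was 0.59 ± 0.21 (SE; limma adjusted p = 0.157), and 0.77 without graft 3 (adjusted p = 0.0312).

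Cdc6, the ATPase that loads the helicase together with Cdt1, was at 9.81, 9.63, 10.76 and 9.24 on grafts 1 to 4. In T-ALL it ran from 10.32 through a median of 10.48 to 10.76, and on the Rag- arrays it was at 10.57, 10.08 and 10.92. The highest graft equalled the highest T-ALL array, and the other grafts lay below all T-ALL arrays without the mark. The difference was 0.66 ± 0.24 (SE; limma adjusted p = 0.162), and 0.96 without graft 3 (adjusted p = 0.00945). Orc6, a subunit of the origin recognition complex, rose by 0.74 without graft 3 (adjusted p = 0.00786). Orc1, another subunit, lay between 7.12 and 7.77 on the grafts, close to the background threshold of 7.12, and its difference without graft 3 was 0.36 (adjusted p = 0.242).

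Of the 6 helicase subunits, 5 rose only without graft 3, namely Mcm2, Mcm3, Mcm5, Mcm6 and Mcm7. Mcm3, whose promoter holds 2 matches to E2F-type letters, was at 9.58, 9.40, 10.40 and 9.70 on grafts 1 to 4. Its T-ALL levels had a lowest of 10.30, a median of 10.71 and a highest of 10.90, and its Rag- levels were 10.20, 10.35 and 10.89. Only graft 3 reached the T-ALL arrays. The difference was 0.91 ± 0.25 (SE; limma adjusted p = 0.0884), and 1.12 without graft 3 (adjusted p = 0.0134). Mcm4 ranged from 12.21 to 13.35 in T-ALL, which spans grafts 1, 2 and 4 (12.29 to 12.53), and its difference without graft 3 was 0.55 (adjusted p = 0.190). Mcm5 rose by 0.92 and Mcm6 by 0.99 without graft 3 (adjusted p = 0.00479 and 0.0143).

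All 4 genes of helicase activation rose only without graft 3. Gins2, a subunit of the GINS complex, which joins Cdc45 to the helicase, was at 8.58, 9.04, 9.41 and 8.76 on grafts 1 to 4. In T-ALL its lowest, median and highest levels were 9.44, 9.99 and 10.78, and the Rag- arrays had 9.41, 9.44 and 10.58. On the probe used, all T-ALL arrays without the mark were above all grafts, the closest pair being T-ALL 2 and graft 3. On a second Gins2 probe the groups overlapped, with T-ALL 2 at 8.78 and graft 3 at 9.30. The difference was 1.13 ± 0.31 (SE; limma adjusted p = 0.0803), and 1.29 without graft 3 (adjusted p = 0.0250).

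Mcm10, which stabilises the active helicase and follows the mean of the other genes most closely, was at 10.27, 10.15, 12.02 and 10.20 on grafts 1 to 4. In T-ALL it ran from 11.00 through 11.37 to 12.08, and on the Rag- arrays it was at 11.97, 11.52 and 11.96. Graft 3 was above 6 of the 7 T-ALL arrays. Without graft 3, Mcm10 rose by 1.25 (limma adjusted p = 0.0106) and Cdc45 by 0.86 (adjusted p = 0.0156).

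Among polymerase and primase subunits, Pola2 and Prim2 rose only without graft 3, and Pold1 and Pole, the catalytic subunits of polymerases delta and epsilon, did not pass. Prim2, the large subunit of primase, was at 8.76, 8.83, 10.47 and 8.63 on grafts 1 to 4. Its T-ALL levels ran from 9.41 through 9.83 to 10.39, and its Rag- levels were 10.08, 10.00 and 10.10. Graft 3 was above all 7 T-ALL arrays and the other grafts below all of them. The difference was 0.71 ± 0.31 (SE; limma adjusted p = 0.251), and 1.14 without graft 3 (adjusted p = 0.00912).

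Pola2, the accessory subunit of polymerase alpha, was at 9.13, 8.73, 9.98 and 9.11 on grafts 1 to 4. In T-ALL it ran from 9.33 through 9.81 to 10.26, and the Rag- arrays had 10.21, 9.86 and 10.12. Graft 3 lay inside the T-ALL range and the other grafts below it. The difference was 0.56 ± 0.24 (SE; limma adjusted p = 0.250), and 0.80 without graft 3 (adjusted p = 0.0384). Pold1 and Pole had differences of 0.89 and 0.76 without graft 3 (adjusted p = 0.0928 and 0.113).

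The clamp, its loader and the single-strand binding proteins gave mixed results. In the main fit with all 4 grafts, 0 of them passed. Rpa2, Rfc3 and Rfc4 rose without graft 3, and Pcna, Rfc2, Rfc5 and Rpa1 did not pass. With all 4 grafts, the Rfc2 probe used had a difference of 0.18, and the other Rfc2 probes had 0.373, 0.454 and 0.617. Rpa2, a subunit of the protein that coats single-stranded DNA, was at 8.94, 9.30, 9.69 and 9.05 on grafts 1 to 4. Its T-ALL levels were 9.93, 10.12 and 10.22 at the lowest, median and highest, and its Rag- levels were 9.87, 9.78 and 10.19. On the probe used, all 10 T-ALL arrays were above all 4 grafts.

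The Rpa2 difference was 0.87 ± 0.20 (SE; limma adjusted p = 0.0631), and 1.01 without graft 3 (adjusted p = 0.00837). With all 4 grafts it passed once the arrays were centred on genes above background everywhere (0.149% of all genes then rose), and once the wild-type and host arrays were left out (0.118% rose). Further Rpa2 probes had differences of 0.362 and 0.174, and on each of them T-ALL and graft arrays overlapped. On the first of these, T-ALL 2 was at 7.97 and graft 3 at 8.44. Rpa1, the large subunit of the same protein, was the only gene with a lower mean in T-ALL, at 13.36, 13.44, 13.30 and 13.12 on grafts 1 to 4 against 12.82, 13.07 and 13.40 at the lowest, median and highest T-ALL array. The Rpa1 ranges overlapped, with a difference of -0.21 with or without graft 3 (limma adjusted p = 0.516 without it).

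Rfc3, a subunit of the clamp loader, was at 8.60, 8.61, 9.23 and 8.61 on grafts 1 to 4. In T-ALL it ran from 9.23 through 9.50 to 10.09, and the Rag- arrays had 9.32, 9.27 and 10.11. Graft 3 equalled the lowest T-ALL array and the other grafts lay close together below. The difference was 0.79 ± 0.25 (SE; limma adjusted p = 0.111), and 0.95 without graft 3 (adjusted p = 0.0333). Pcna, the sliding clamp itself, was at 8.39, 7.88, 8.63 and 8.18 on grafts 1 to 4 and from 7.84 through 8.40 to 8.59 in T-ALL. The Pcna ranges overlapped almost wholly.

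**Figure D4:**
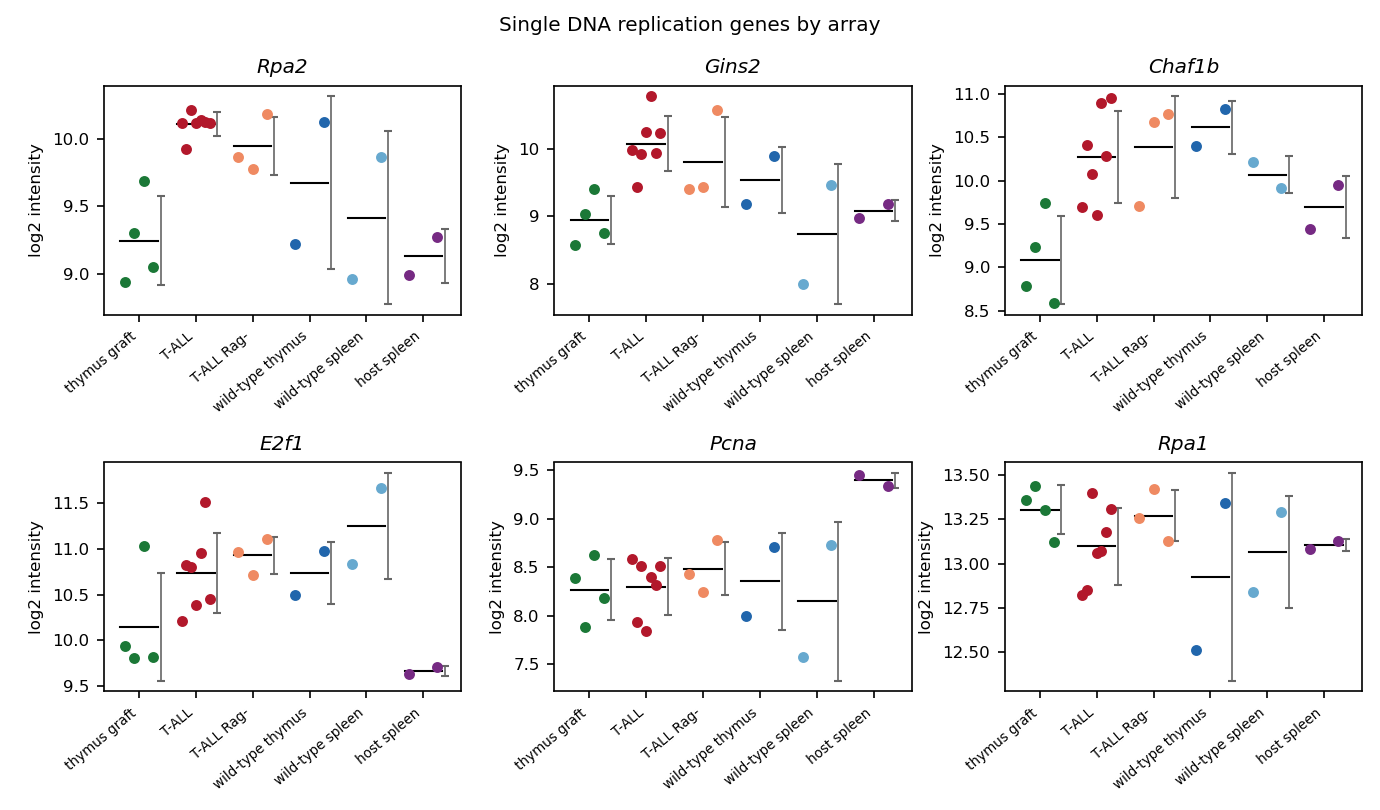
Level of 6 single genes (log2 intensity) on each array, by group, with group means as black bars and SD as grey bars. On the probes used, Rpa2 and Gins2 have all T-ALL arrays without the mark above all grafts. Pcna is highest on the host spleens at 9.45 and 9.34, and Rpa1 overlaps between grafts and T-ALL.

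All 4 genes of nucleotide supply and Okazaki fragment joining rose only without graft 3. Rrm1, the large subunit of ribonucleotide reductase, which makes deoxynucleotides, was at 10.56, 10.98, 11.83 and 10.11 on grafts 1 to 4. Its T-ALL levels ran from 11.20 through 11.55 to 12.08, and its Rag- levels were 11.65, 11.95 and 12.11. Only graft 3 reached the T-ALL arrays. The difference was 0.77 ± 0.25 (SE; limma adjusted p = 0.131), and 1.09 without graft 3 (adjusted p = 0.00667). A second Rrm1 probe gave a difference of 0.881. Lig1, the ligase that seals Okazaki fragments, had the smallest adjusted p of the 36 genes without graft 3, 0.00274, at a difference of 0.95. Rrm2 and Fen1, the small reductase subunit and the flap nuclease, rose by 0.62 and 0.55.

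Of the genes that copy chromatin and DNA methylation, Chaf1a and Chaf1b rose only without graft 3, and Dnmt1 and Uhrf1 did not pass. Chaf1b, a subunit of the chromatin assembly factor that places histones behind the fork, was at 8.78, 9.23, 9.74 and 8.59 on grafts 1 to 4. In T-ALL it ran from 9.60 through 10.29 to 10.96, and the Rag- arrays had 9.71, 10.68 and 10.77. Graft 3 lay just above the lowest T-ALL array, and the T-ALL arrays themselves were widely spread. The difference was 1.19 ± 0.30 (SE; limma adjusted p = 0.0704), and 1.41 without graft 3 (adjusted p = 0.0113). Chaf1a, its partner, rose by 1.12 without graft 3 (adjusted p = 0.00426). Dnmt1, the maintenance DNA methyltransferase, and Uhrf1, which guides it, had differences of 0.51 and 0.34 without graft 3 (adjusted p = 0.299 and 0.374).

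Of the G1/S regulators, E2f1 rose only without graft 3. E2f1, an activating E2F factor, was at 9.94, 9.81, 11.03 and 9.82 on grafts 1 to 4. In T-ALL it ran from 10.21 through 10.80 to 11.51, and the Rag- arrays had 10.97, 10.71 and 11.11. Graft 3 lay in the upper part of the T-ALL range and the other grafts below it. The difference was 0.58 ± 0.27 (SE; limma adjusted p = 0.271), and 0.88 without graft 3 (adjusted p = 0.0351). Ccne1 and Ccne2, the E cyclins that drive entry into S phase, had differences of 0.18 and 0.30 without graft 3 (adjusted p = 0.659 and 0.478).

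Other gene lists of the cell cycle, chosen with earlier results known, were set beside these. Without graft 3, 3.45% of all genes rose and 5.28% fell. Calls from that fit are no independent support for a difference, for the reason given above. Of 33 measured further replication genes, 0 passed with all 4 grafts and 7 rose and 0 fell without graft 3, among them Tipin (1.00), Tk1 (1.20), Pold2 (0.91) and Cdc25a (0.99). Of 18 mitosis genes, 0 passed with all 4 grafts and 5 rose without graft 3, among them the kinases Cdk1 (0.86), Plk1 (0.87) and Aurkb (0.84) and the anaphase activator Cdc20 (0.79). Of 17 genes of E2F and G1/S control, 0 passed with all 4 grafts. Without graft 3, Myc (0.94) and Cdk4 (1.07) rose, and the inhibitor Cdkn1b (-0.62) and E2f2 (-1.11) fell.

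Markers of other cells moved with graft 3. Its T cell receptor complex mean of 12.27 lay in the T-ALL range of 12.21 to 12.58, below the other grafts at 13.11 to 13.34. Its erythroid mean of 11.59 and thymocyte mean of 9.91 also lay in the T-ALL ranges of 8.97 to 12.43 and 9.28 to 10.72, and its macrophage mean of 10.77 was above the highest T-ALL array at 10.36. Graft 2 had an erythroid mean of 10.89 and a granulocyte mean of 10.67, with a replication mean of 10.06.

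Summed over the 8 measured of 12 erythroid genes, linear intensity ran from 1825 to 83944 in grafts and from 29684 to 120480 in T-ALL. The 11 measured of 12 macrophage genes ran from 1453 to 32035 and from 6824 to 23902, and the 11 of 12 granulocyte genes from 1228 to 38930 and from 1371 to 57532. The 10 measured of 12 double-positive thymocyte genes ran from 27526 to 60253 in grafts, from 15596 to 49231 in T-ALL and from 13535 to 17234 in T-ALL marked Rag-, where Cd4 was not above background. The part of these cells in the replication differences was not tested.

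**Figure D5:**
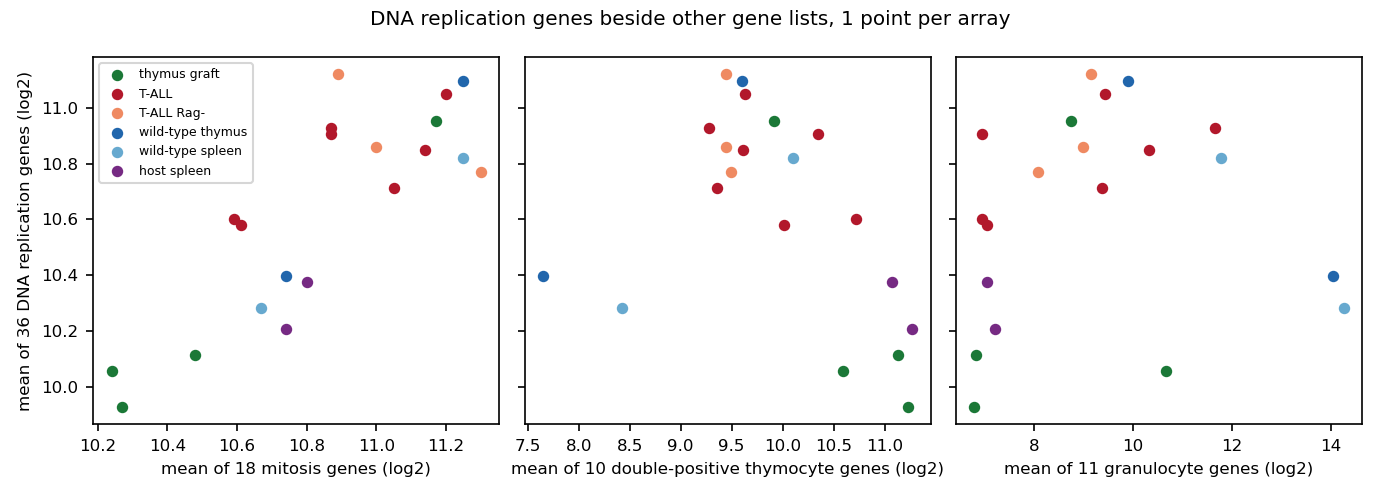
Mean of the 36 DNA replication genes (vertical axis, log2) against the mean of 18 mitosis genes, 10 double-positive thymocyte genes and 11 granulocyte genes (horizontal axes, log2), 1 point per array and coloured by group. Grafts 1, 2 and 4 are lowest on both the replication and the mitosis axis, and wild-type thymus 1 and wild-type spleen 1 lie far right on the granulocyte axis at 14.04 and 14.25.

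T-ALL marked Rag- was set against the same 4 grafts, so its values share controls with those above. Of the 36 genes, 35 had a higher mean than in grafts (52.4% of all genes did), with a median of 0.69 (log2), and 0 passed (limma, adjusted over all genes), where 0.0157% of all genes were called. At an unadjusted p under 0.05 stood 23 of the 36 and 16.3% of all genes. By the brightest probe of each gene, the groups did not overlap for 4 genes, Rfc3, Rfc5, Rpa2 and Fen1, against 7.18% of all genes. Fen1 had the smallest p, with a difference of 0.68 ± 0.18 (SE; limma adjusted p = 0.127).

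Without graft 3, 19 of the 36 genes rose in T-ALL marked Rag-, where 3.98% of all genes rose. They included Mcm10 (1.61), Chaf1b (1.52), Rrm1 (1.35), Prim2 (1.32) and Mcm4 (1.05; limma adjusted p = 0.0350). The Rag- arrays lay on chip 3 and the grafts on chips 1 and 2, and T-ALL arrays lay on all 3 of these chips, with T-ALL 7 as the only one on chip 3. With chip as a fixed block, linked through the T-ALL arrays, 0 genes passed by limma with all 4 grafts and 0 without graft 3, with 3 and 16 at an unadjusted p under 0.05. The share of all genes under that unadjusted cut in these fits is not given, so these counts cannot be set against it. The median stayed above 0 in both fits, at 0.66 and 0.87 (log2). With chip as a random block and all 4 grafts, 4 genes rose, Chaf1b, Rrm1, Fen1 and Cdc45, where 2.44% of all genes did, and without graft 3 the random block gave 26, where 7.35% did. The 19 calls made without graft 3 thus did not pass once chip was a fixed block, a setting added after the data were seen.

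Between T-ALL marked Rag- and the other T-ALL, no replication gene passed, and 0 of all 12710 genes did by limma, or 0% of them. At an unadjusted p under 0.05 stood 0 of the 36 genes and 5.13% of all genes. The median difference was 0.16 (log2), with 28 of 36 above 0, where 52.5% of all genes were. All Rag- arrays lay on chip 3, with 1 of the 7 other T-ALL arrays. With chip as a fixed block, and on chip 3 alone, 20 genes had a difference above 0 and 16 below, with a median of 0.065. Mcm4 differed by 0.50 ± 0.29 (SE; limma adjusted p = 0.901), and its levels were 13.51, 13.59 and 13.18 against 12.21 to 13.35 in T-ALL. Mcm7 differed by -0.30 ± 0.24 (SE; limma adjusted p = 0.910). Neither passed the test.

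Wild-type thymus against grafts asks how the graft differs from a normal thymus, but strain and chip differ along with the group and cannot be told apart from it. Of the 36 genes, 34 had a lower mean in grafts (51.3% of all genes had a higher one), with a median of -0.51 (log2), and 0 passed (limma, adjusted over all genes), where 0.0787% of all genes were called. At an unadjusted p under 0.05 stood 7 of the 36 and 20.3% of all genes. Both wild-type arrays were above all 4 grafts for 3 genes, Chaf1b, Rrm2 and Fen1, against 8.01% of all genes. Chaf1b was at 10.40 and 10.83 in wild-type thymus, with a difference of -1.53 ± 0.41 (SE; limma adjusted p = 0.112). Rrm2 was at 10.66 and 10.89, where the grafts ran from 9.43 to 10.43, with a difference of -0.92 ± 0.25 (SE; limma adjusted p = 0.112).

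Wild-type thymus 3 was above wild-type thymus 1, the array with granulocyte markers at 14.04, for 35 of the 36 genes, and the share of all genes in that order is not given. Ccne1 was the exception, at 9.01 on wild-type thymus 1 and 8.14 on wild-type thymus 3. Without graft 3, 10 genes were lower in grafts by the test, where 3.52% of all genes were. With chip as a random block and all 4 grafts, 2 were lower, Chaf1b and Rrm2, where 0.905% of all genes were. The 10 genes were Orc6, Rrm2, Chaf1a, Chaf1b, Fen1, Rrm1, Lig1, Mcm5, Cdc45 and Mcm10, with differences from -0.73 for Fen1 to -1.75 for Chaf1b. Without wild-type thymus 1 alone, 36 of 36 genes had a lower mean in grafts, with a median of -0.87, and 1 wild-type array remained. Without wild-type thymus 3, 24 had a lower mean and 12 a higher one, with a median of -0.14. With both graft 3 and wild-type thymus 1 left out, a setting added after the data were seen, 5 genes were lower, where 0.519% of all genes were, and 1 wild-type array remained.

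T-ALL and wild-type thymus had like means over the list, 10.80 and 10.75, but here too strain and chip differ along with the group and cannot be told apart from it. Of the 36 genes, 19 had a higher and 17 a lower mean in T-ALL (53.8% of all genes had a higher one), with a median of 0.06 (log2), and 0 passed (limma, adjusted over all genes), where 0.0315% of all genes were called. At an unadjusted p under 0.05 stood 1 gene, Rrm2, and 14.1% of all genes. Rrm2 and Ccne2 were lower on all T-ALL arrays than on both wild-type arrays, against 2.86% of all genes. Ccne2 ran from 7.39 to 8.46 in T-ALL and was at 8.48 and 8.50 in wild-type thymus. The median was -0.30 without wild-type thymus 1 and 0.45 without wild-type thymus 3, so its direction rested on which of the 2 arrays was used.

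Host spleen was set against wild-type spleen, on the same chip but of another strain, with thymocyte markers high on both host arrays and on wild-type spleen 3, and granulocyte markers high on wild-type spleen 1. Of the 36 genes, 29 had a lower mean in host spleen (47.1% of all genes had a higher one), with a median of -0.30 (log2), and 0 passed (limma, adjusted over all genes), where 2.98% of all genes were called. At an unadjusted p under 0.05 stood 7 of the 36 and 22.9% of all genes. Without wild-type spleen 3, 19 genes had a lower mean in host spleen and 17 a higher one, with a median of -0.06, and without wild-type spleen 1 the counts were 33 and 3, with a median of -0.49. Without host spleen 4 they were 26 and 10 (median -0.17) and without host spleen 5 they were 29 and 7 (median -0.40). Host arrays were below both wild-type arrays for 14 genes and above them for 3, against 28.1% and 26.7% of all genes.

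E2f1 was at 9.63 and 9.71 in host spleen and at 10.84 and 11.66 in wild-type spleen, with a difference of -1.58 ± 0.42 (SE; limma adjusted p = 0.0526). Host E2f1 was below every other array, an order whose share of all genes is not given. Below both wild-type spleens alone stood 28.1% of all genes. Pcna went the other way, at 9.45 and 9.34 in host spleen against 7.57 and 8.73, with a difference of 1.25 ± 0.37 (SE; limma adjusted p = 0.0724). Pcna was the 1 gene of the 36 with both host arrays above all 18 other arrays, an order shown by 4.27% of all genes. Rfc4 (10.60 and 11.13 against 9.98 and 10.00) and Mcm7 (11.47 and 11.29 against 10.15 and 10.99) were the other genes with host levels above both wild-type spleens. A second Mcm7 probe had the host spleens at 9.15 and 9.35, between the wild-type spleens at 7.56 and 9.43.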

How the data were processed

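RNA was measured on 20 Illumina mouse bead arrays of 46089 probes, labelled as biotinylated cRNA per the labels' protocols. The log2 intensity values were deposited by the authors. They had been quantile normalized before deposit, as read from the values: the sorted values of any 2 arrays were within 0.01 of each other and every median was 6.95. The software used for this is not given in the sources used here. A further 20 columns of values before normalization matched no label and were not used. Groups and chips came from the labels.

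Symbols came from the platform annotation, for 35667 probes with 1 symbol, 0 with several and 10422 with none, and were updated through RefSeq by gene ID, accession, symbol or synonym (56 matched nothing). The background mode was 6.78 with SD 0.113, and a probe above 7.12, 3 SD over the mode, was called above background. A gene was tested if a probe was above background on at least 2 arrays, by its brightest probe.

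Group means were compared with limma 3.58.1 in R 4.3.3 (lmFit, eBayes with trend) over all 20 arrays and 12710 genes, with Benjamini-Hochberg adjustment at 0.05 per comparison. The scripts were tested on simulated data. Levels in grafts, T-ALL (7 arrays, as lowest, median and highest) and T-ALL marked Rag- are given for the gene with the smallest T-ALL against graft p and the widest spread in each role, and a few more genes (Rpa1, Pcna, Rrm2, Ccne1, Ccne2, Rfc4, Mcm7, Mcm4, Mcm10, Orc1) were singled out after their values were seen. The genes and lists were chosen with earlier results of these data known. Alternatives covered centring, background, probe choice, symbols, chip as a block and leaving out single arrays.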

Additional observations from a re-analysis of the deposited data

Results flagged for a closer look

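Within groups of 4 to 7 arrays, 74 sets of values were examined for a single array far from the rest, and 11 were found. Chance flags about 1 in 20 independent sets, but these sets share arrays and genes that move together, so that rate is no yardstick here. Graft 3 was the array far above the other 3 grafts in 7 of them: Mcm10 (12.02 against 10.15 to 10.27), Mcm2 (12.33 against 10.89 to 11.01), Orc6 (11.99 against 10.80 to 10.86), Cdc45 (10.51 against 9.36 to 9.54), Prim2 (10.47 against 8.63 to 8.83), Rfc3 (9.23 against 8.60 to 8.61) and E2f1 (11.03 against 9.81 to 9.94).

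The other 4 were in T-ALL. T-ALL 2 was low for Rfc5, at 9.16 where the others had 10.01 to 10.50, and for Rpa2, at 9.93 where the others had 10.12 to 10.22. T-ALL 3 was high for Mcm6, at 13.04 against 12.31 to 12.59, and T-ALL 5 was high for Rfc3, at 10.09 against 9.23 to 9.60.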

How the results depend on the processing

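No comparison had a replication gene called in the main fit with all arrays, and graft 3 moved the counts most. Leaving out 1 array at a time gave 0 to 24 genes higher in T-ALL than in grafts, 0 to 19 higher in T-ALL marked Rag- than in grafts and 0 to 10 lower in grafts than in wild-type thymus, the highest each time without graft 3. Fits with a wild-type thymus, wild-type spleen or host spleen array left out kept 1 array in that group, so their calls are not listed. For T-ALL against grafts, 1 gene (Rpa2) rose with arrays centred, by 0.87. With grafts, T-ALL and T-ALL marked Rag- alone, 1 (Rpa2) rose too, and with only the 2 groups compared 0 did. With chip as a random block, 4 genes rose in T-ALL marked Rag- and 2 fell in grafts against wild-type thymus (Chaf1b, Rrm2, where 0.905% of all genes fell). Centring, and symbols left as deposited, each brought E2f1, lower in host spleen, from just above the threshold (limma adjusted p = 0.0526) to below it. The share of all genes called lower in those fits is not given. Of the settings added after the data were seen, 15 genes rose in T-ALL without graft 3 and with chip as a fixed block, 26 rose in T-ALL marked Rag- without graft 3 and with chip as a random block (7.35% of all genes rose) but 0 with chip as a fixed block, and 5 were lower in grafts without graft 3 and wild-type thymus 1, at a median of -1.12 where it was -0.51 with all arrays. The T-ALL against graft median ran from 0.37 on chip 2 alone, which holds graft 3, through 0.76 on chip 1 alone to 0.84 without graft 3. The T-ALL against wild-type thymus median turned below 0 with arrays centred (-0.0039) and without T-ALL 6 (-0.0017). The list mean, taken over all probes of a gene, was 9.715 in grafts, 10.208 in T-ALL, 10.287 in T-ALL marked Rag-, 10.146 in wild-type thymus, 9.94 in wild-type spleen and 9.736 in host spleen, and with background subtracted it was 10.084 in host spleen. The cause of these changes was not tested. No paired analysis was possible because the groups compared share no numbers that tie arrays together. Chip as a fixed block could not be fitted for grafts or T-ALL against wild-type thymus, since chip 4 held no graft or T-ALL array.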
